A study of Homo sapiens with 6 samples.

Results

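The genes that govern how glucose enters a cell and is committed to glycolysis were followed as a group of 10 in NK-92MI cells, an interleukin-2-producing human natural killer cell line, with and without mitochondria from another cell line. The 10 genes were the glucose transporter genes SLC2A1, SLC2A3 and SLC2A4, the hexokinase genes HK1, HK2 and HK3, the PFKFB enzyme genes PFKFB2, PFKFB3 and PFKFB4, and TXNIP, whose protein restrains glucose uptake. All 176 probe sets that the array's annotation gives to 1 of these genes alone were taken, of 352859 on the array, and no other probe set named any of them together with another gene. Each gene was also given 1 value, that of its brightest probe set, as were all 22260 genes of the array.

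Glucose crosses the plasma membrane through carriers of the GLUT family, of which GLUT1 (SLC2A1) and GLUT3 (SLC2A3) serve uptake in most lymphocytes and GLUT4 (SLC2A4) is the insulin-responsive carrier of muscle and fat. Hexokinases then phosphorylate the sugar and trap it inside the cell. The PFKFB enzymes make and break down fructose 2,6-bisphosphate, the strongest allosteric activator of phosphofructokinase, and so set the pace of glycolysis. Natural killer cells raise glucose uptake and glycolysis when cytokines or target cells activate them.

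The 3 samples labelled Control were NK-92MI cells. The 3 labelled Mitochondrial transfer were NK-92MI cells given 5 µg of mitochondria by centrifugation at 1500 × g for 15 min. These mitochondria were isolated from WRL-68, a human cell line that the article describes as hepatic. The same treatment text stands on all samples, so whether the control cells were spun is not given in the sources used here, and neither is the time from transfer to harvest nor whether replicates were separate cultures. P-values therefore set the difference between the groups against the spread within each group of 3 samples, which may be technical. RNA was measured on Affymetrix whole-transcript arrays, although the article's text calls the expression data RNA-seq.

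The level below which 95% of olfactory receptor genes lay was taken as background, at a log2 intensity of 6.59 for the brightest probe set of a gene and 6.15 for single probe sets. All 17 natural killer cell markers examined lay above it, with a mean over the markers of 10.92 to 11.12 on control arrays and 10.79 to 10.91 on transfer arrays. This mean was slightly lower after transfer, with no overlap, and its part in the results below was not tested. Of 16 hepatocyte, 12 epithelial and 12 myeloid markers, 12, 10 and 9 also lay above the background, so that a value above it does not by itself show expression. The means over each of these 3 lists overlapped between the groups, with hepatocyte markers at 6.86 to 7.11 on control arrays and 6.90 to 7.02 on transfer arrays. Pearson's r across genes, which are not independent replicates, was 0.981 to 0.983 between control arrays and 0.969 to 0.972 between transfer arrays.

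The sequence before the start site is shown for HK2, a gene called below, and for PFKFB4, SLC2A1 and TXNIP for comparison. The promoters are RefSeq's on GRCh38.p14, cover 250 bases before to 50 after each start and were found for 7 of the 10 genes, with 16 start sites. SLC2A3, SLC2A4 and PFKFB2 were not matched. Capitals mark ACGTG or GCGTG on either strand, the core letters of the hypoxia response element, and where a capital run reads CACGTG it is also the E-box to which MYC and related factors bind. HK2 has 2 start sites, at chr2:74833877-74834176 and chr2:74834920-74835219, both on the plus strand. The promoters of PFKFB4 (chr3:48556754-48557053), SLC2A1 (chr1:42958819-42959118) and the first start of TXNIP (chr1:145996530-145996829) lie on the minus strand and are printed as transcribed.
HK2 first start: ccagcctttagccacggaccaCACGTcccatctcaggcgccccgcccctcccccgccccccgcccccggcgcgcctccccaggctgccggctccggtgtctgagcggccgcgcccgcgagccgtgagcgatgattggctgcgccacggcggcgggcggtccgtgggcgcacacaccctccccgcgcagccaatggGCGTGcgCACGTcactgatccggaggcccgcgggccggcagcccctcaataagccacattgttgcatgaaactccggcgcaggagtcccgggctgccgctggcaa
HK2 second start: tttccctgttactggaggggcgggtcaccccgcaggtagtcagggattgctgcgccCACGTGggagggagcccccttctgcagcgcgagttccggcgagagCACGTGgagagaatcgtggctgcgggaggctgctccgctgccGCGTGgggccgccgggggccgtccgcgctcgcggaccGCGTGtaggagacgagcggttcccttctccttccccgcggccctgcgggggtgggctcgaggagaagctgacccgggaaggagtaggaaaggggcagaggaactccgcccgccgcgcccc
PFKFB4: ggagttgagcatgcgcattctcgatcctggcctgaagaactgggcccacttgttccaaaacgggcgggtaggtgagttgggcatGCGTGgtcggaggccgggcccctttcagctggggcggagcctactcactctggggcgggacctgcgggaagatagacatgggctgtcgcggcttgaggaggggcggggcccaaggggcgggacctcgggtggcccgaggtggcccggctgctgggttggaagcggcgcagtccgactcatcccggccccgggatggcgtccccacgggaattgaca
SLC2A1: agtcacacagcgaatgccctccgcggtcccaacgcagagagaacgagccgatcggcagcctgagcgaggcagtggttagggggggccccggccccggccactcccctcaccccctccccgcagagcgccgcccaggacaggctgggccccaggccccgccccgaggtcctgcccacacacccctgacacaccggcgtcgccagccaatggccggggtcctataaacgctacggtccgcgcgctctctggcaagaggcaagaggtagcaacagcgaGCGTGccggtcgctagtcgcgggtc
TXNIP first start: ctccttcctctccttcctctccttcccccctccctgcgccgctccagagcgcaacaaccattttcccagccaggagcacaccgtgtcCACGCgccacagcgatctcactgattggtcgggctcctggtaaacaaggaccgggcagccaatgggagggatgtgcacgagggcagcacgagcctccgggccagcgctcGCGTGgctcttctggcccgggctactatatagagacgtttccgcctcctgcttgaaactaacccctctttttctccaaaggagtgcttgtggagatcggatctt

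ACGTG was found in 4 of the 16 promoters of these genes, and in 21.4% of the 35116 promoters of the table. ACGTG or GCGTG was found in 10 of the 16, and in 48.4% of all promoters. Both HK2 promoters held ACGTG, and the second start of HK2 held CACGTG at 2 places, a motif present in 7.26% of all promoters. The remaining promoters with ACGTG, not printed above, were the second starts of PFKFB3 and of TXNIP. That of PFKFB3 also held CACGTG, at 1 place. The PFKFB4 promoter held GCGTG once and GGGCGG, the GC box bound by SP1, 5 times. GGGCGG also stood 6 times in the first promoter of PFKFB3 and 4 times in that of HK2. At least 1 GGGCGG was found in 45.0% of all promoters, a share that cannot be set against counts of sites. TXNIP's first promoter held GCGTG at 2 places. These matches are descriptions of the letters and were not tested as binding sites.

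After mitochondrial transfer, SLC2A3 and HK2 rose, by 1.13 and 1.02 on the log2 scale, and none of the other 8 genes passed the test at the level of the gene. The 2 called genes stand against 1.74% of all genes called higher, and 0 of the 10 were called lower against 0.234%, in limma with Benjamini-Hochberg adjustment over all genes and a threshold of 0.05. At an unadjusted p under 0.05 in limma, 6 of the 10 were higher and 0 lower, against 10.6% and 7.31% of all genes. The 10 were chosen with earlier results of these data known, so these shares are descriptions and carry no test. The 4 that joined SLC2A3 and HK2 at the unadjusted threshold were HK1, SLC2A1, PFKFB3 and PFKFB4. The median log2 difference was 0.42 over the 10 genes and 0.00 over all genes. Because RNA was taken from whole cultures, a change in RNA per cell and a change in the make-up of the culture cannot be told apart.

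**Figure D1:**
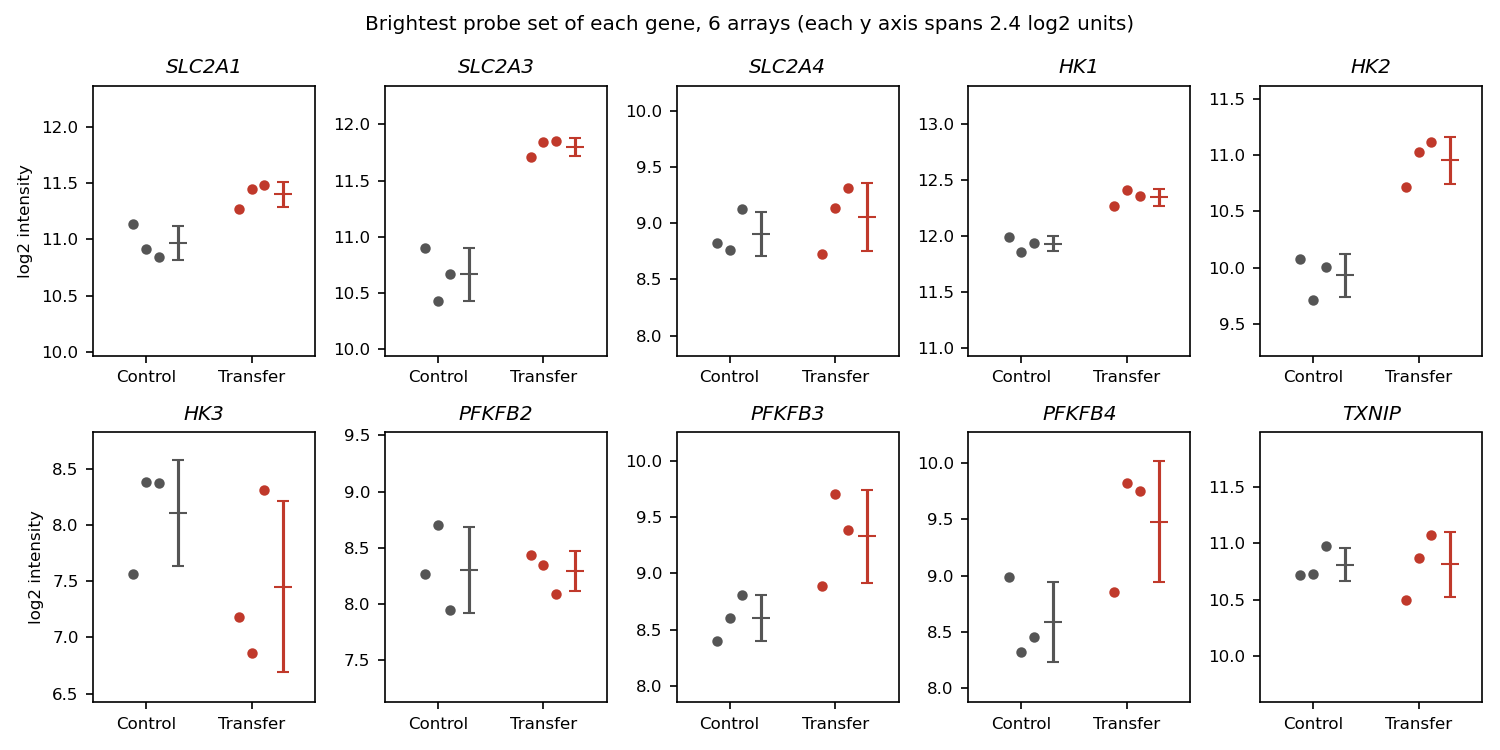
Log2 intensity on each array, from the brightest probe set, for each of the 10 genes (points), with the group mean and SD beside them (bar, n = 3), in control cells (grey) and after mitochondrial transfer (red). All panels span the same number of log2 units, and the groups separate for SLC2A1, SLC2A3, HK1, HK2 and PFKFB3.

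Among the transporters, SLC2A3 rose on its brightest probe set, while SLC2A1 and SLC2A4 did not pass. Its brightest probe set read 10.90, 10.43 and 10.67 on the control arrays and 11.71, 11.84 and 11.85 on the transfer arrays. The lowest transfer array thus lay above the highest control array, for a difference of 1.13 (standard error 0.16, 95% confidence interval 0.75 to 1.51, limma adjusted p = 0.0188). The call ended with the mean of its probe sets (adjusted p = 0.0579), their median (0.0962), the replicate block (0.0987) and the methods' t-test (adjusted p = 0.0842). All 9 probe sets of SLC2A3 were higher after transfer, by 0.74 to 1.49 with a median of 1.21, and in 7 of them the groups did not overlap. Ranked by the median difference over a gene's probe sets, SLC2A3 was at place 33 of 22260 genes from the top. Each of the 9 probe sets on its own missed the threshold over all probe sets, with an adjusted p of 0.163 at best. GLUT3 is a high-affinity carrier, best known from neurons and also used by lymphocytes. Its gene has a near-identical relative, SLC2A14, and labelled RNA from either can bind probes of the other. The brightest probe set of SLC2A14 differed by −0.39 (adjusted p = 0.719), while 8 of its 9 probe sets were higher, with a median of 0.40, so that the share of SLC2A14 in the SLC2A3 signal was not tested.

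SLC2A1, the gene of the widespread carrier GLUT1, had values of 11.14, 10.92 and 10.85 in control cells and 11.27, 11.45 and 11.48 after transfer. The groups did not overlap, which was also true, in the upward direction, of 13.9% of all genes. The difference of 0.43 (standard error 0.15, 95% confidence interval 0.09 to 0.78) did not pass the test (adjusted p = 0.195). Of its 19 probe sets 16 were higher and in 12 the groups separated upward, and the median difference was 0.51. With the trend and robust options of limma the gene passed (adjusted p = 0.0465).

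SLC2A4 gave mostly background, as 3 of its 12 probe sets lay above it. Its brightest probe set read 8.83, 8.76 and 9.12 in control cells and 8.72, 9.13 and 9.32 after transfer, with overlapping groups and a difference of 0.15 (95% confidence interval −0.31 to 0.62, adjusted p = 0.722). Of its 12 probe sets 6 were higher, and the median difference was −0.06.

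Among the hexokinases, HK2 rose on its brightest probe set, and HK1 and HK3 did not pass. HK2 encodes the inducible hexokinase that can dock on the outer mitochondrial membrane. Its brightest probe set read 10.07, 9.72 and 10.01 in control cells and 10.71, 11.03 and 11.11 after transfer. The groups were separate, with a difference of 1.02 (standard error 0.17, 95% confidence interval 0.61 to 1.43, adjusted p = 0.0361). The call ended with the median of its probe sets (adjusted p = 0.0637), the second brightest probe set (0.0681), the replicate block (0.129) and the methods' t-test (adjusted p = 0.110), and held with the mean (0.0198). Of its 20 probe sets 19 were higher, in 18 of them without overlap, and the median difference was 1.06, at place 42 of all genes. The exceptions to separation were probe set 1 in the order of their numbers, which was dim and differed by −0.13, and probe set 3, which differed by 0.07. The largest difference was 1.45, in probe set 10, where control arrays read 9.28, 8.89 and 8.88 and transfer arrays 10.55, 10.41 and 10.45 (adjusted p over all probe sets = 0.141).

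HK1 encodes the housekeeping hexokinase. It read 11.99, 11.86 and 11.94 in control cells and 12.26, 12.41 and 12.36 after transfer. The groups were separate but less far apart, at 0.41 (standard error 0.13, 95% confidence interval 0.11 to 0.71, adjusted p = 0.171). Of its 28 probe sets 22 were higher and in 16 the groups separated upward. All 6 that were lower had a mean below the background. From probe set 13 to probe set 28 in number order every difference was positive, and several of these differences were alike, with 0.49, 0.48 and 0.43 in probe sets 13, 16 and 21. The control values of HK1 lay close together (SD 0.07, n = 3), and with the trend and robust options the gene passed (adjusted p = 0.0124).

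HK3, known from myeloid cells, had 5 of 19 probe sets above background. Its brightest probe set read 7.56, 8.38 and 8.37 in control cells and 7.18, 6.86 and 8.31 after transfer, so that the groups overlapped. The difference of −0.66 (95% confidence interval −1.62 to 0.31, adjusted p = 0.445) turned to 0.02 with the mean of its probe sets and to 0.46 with their median, neither of which passed.

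Among the PFKFB genes, none passed at the level of the gene, while 1 probe set of PFKFB4 and 1 of PFKFB2 did so in the fit over probe sets. PFKFB4 encodes a bifunctional kinase and phosphatase that responds to hypoxia. Its brightest probe set read 8.99, 8.32 and 8.45 in control cells and 8.86, 9.82 and 9.75 after transfer, with the first transfer array inside the control range, and the difference of 0.89 (standard error 0.31, 95% confidence interval 0.17 to 1.61) did not pass the test (adjusted p = 0.203). The other 17 probe sets were uneven. Of all 18, 14 were higher, 8 by more than 1 and 7 by more than 2 on the log2 scale when values below the background were raised to it (10 and 8 on the values as deposited), and in 12 the groups separated upward. The median difference was 1.49, at place 21 of 22260 genes. Probe set 5 passed the test over all 352859 probe sets, with 5.49, 5.24 and 4.97 on control arrays and 8.48, 8.81 and 9.06 on transfer arrays (adjusted p = 0.0251). All 3 control values lay below the background, so the rise is given as a bound, at least 6.20-fold, where each array is set to no less than the background. Probe set 10 read 6.43, 6.39 and 7.24 in control cells and 9.55, 9.65 and 9.76 after transfer, a difference of 2.97 that missed the threshold (adjusted p = 0.0554).

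Probe set 6 of PFKFB4 read 7.65, 7.04 and 7.42 in control cells and 10.29, 9.73 and 9.47 after transfer, for a difference of 2.46 (adjusted p = 0.0978). Probe set 12 read 8.66, 7.26 and 7.80 against 9.81, 9.96 and 10.48, for a difference of 2.17 (adjusted p = 0.239). Both had separate groups. The 4 probe sets that were lower, numbers 9, 15, 16 and 18, differed by −0.04 to −1.17 with overlapping groups. The call for PFKFB4 depended on the value chosen for the gene, as it passed with the mean of its probe sets (1.49, adjusted p = 0.0175) and with their median (1.70, adjusted p = 0.0198). With the second brightest probe set the difference was 2.17 and did not pass.

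PFKFB3, the isoform with the highest kinase activity relative to its phosphatase activity, read 8.40, 8.60 and 8.81 in control cells and 8.89, 9.71 and 9.39 after transfer. The groups did not overlap, and the difference of 0.73 (standard error 0.23, 95% confidence interval 0.17 to 1.28) did not pass (adjusted p = 0.182). Of 18 probe sets 13 were higher, with a median of 0.36, and the groups separated upward in 6 and downward in 2. The largest was probe set 15, with 6.08, 5.82 and 5.63 in control cells and 7.36, 7.85 and 8.09 after transfer, at least 3.06-fold higher with the control arrays set to the background (adjusted p = 0.136). Probe set 16, its neighbour in number, differed by −0.38 (adjusted p = 0.615).

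PFKFB2, the isoform best known from heart, lay mostly at background, with 5 of 18 probe sets above it. Its brightest probe set read 8.27, 8.71 and 7.95 in control cells and 8.44, 8.35 and 8.09 after transfer, a difference of −0.01 (95% confidence interval −0.53 to 0.50, adjusted p = 0.979). A single probe set passed the test over all probe sets, number 5, with 4.21, 3.10 and 3.75 on control arrays and 7.97, 7.76 and 7.62 on transfer arrays, at least 3.10-fold higher (adjusted p = 0.0322). The gene's other probe sets did not share it, as 7 of 18 in all were higher and the median difference was −0.08. The groups separated downward in 2 of the 18, while 10.3% of all probe sets did so. These were probe set 17, with a difference of −1.02 (adjusted p = 0.251), and probe set 15, below the background (−1.58, adjusted p = 0.469).

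**Figure D2:**
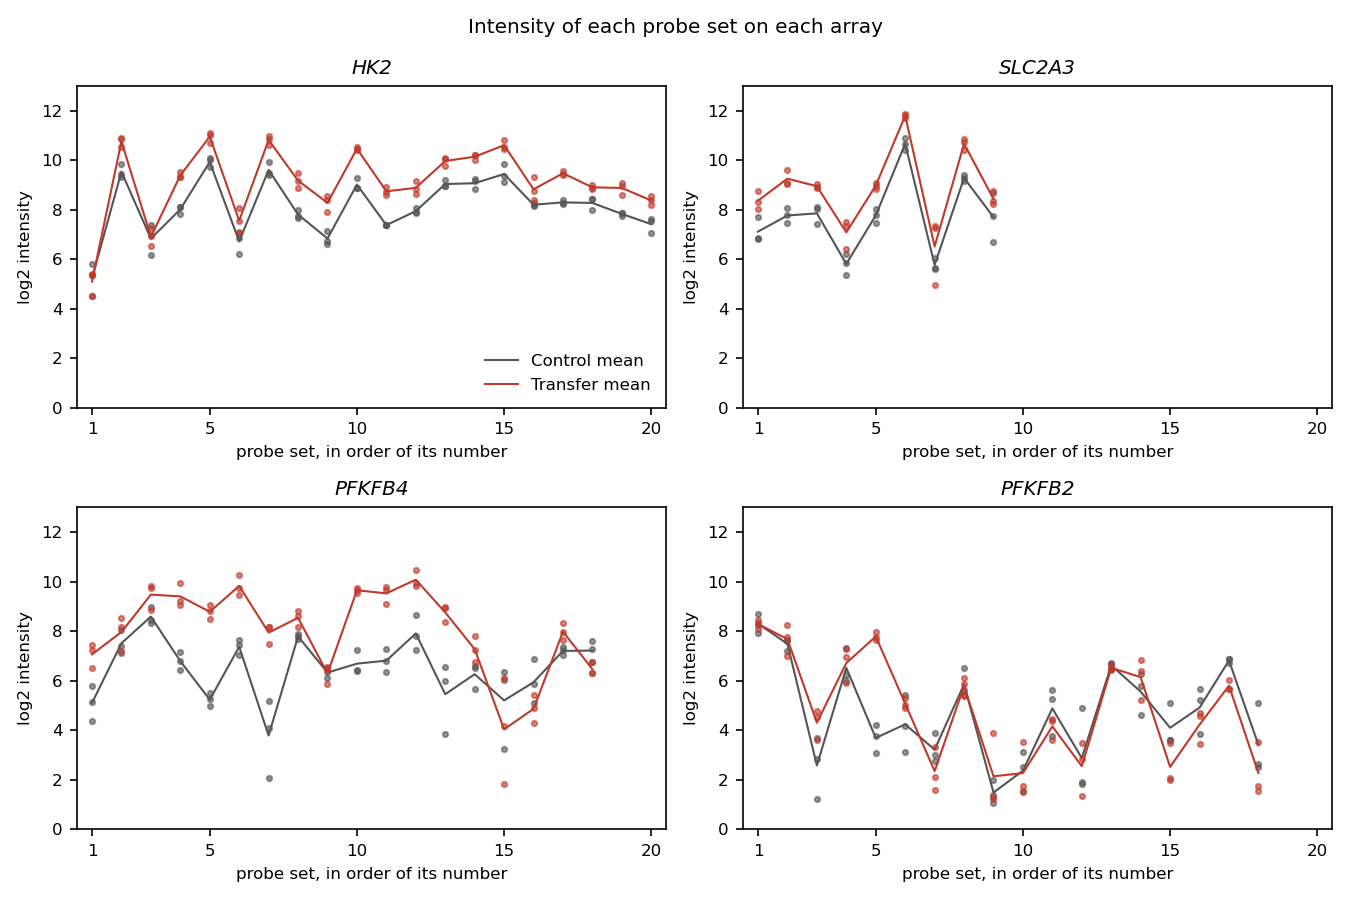
Log2 intensity of each probe set of HK2, SLC2A3, PFKFB4 and PFKFB2 on each array (points) with the group means (lines), in the order of the probe sets' numbers, in control cells (grey) and after transfer (red). The transfer line runs above the control line along SLC2A3 (median 1.21) and along HK2 (median 1.06). In HK2 the exceptions are probe set 1 (−0.13) and probe set 3, where the lines nearly meet (0.07). On the values as deposited, the transfer line is more than 2 units above at 8 of 18 probe sets of PFKFB4. PFKFB2 differs by more than 2 units at probe set 5 alone.

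TXNIP, an alpha-arrestin that binds thioredoxin and promotes removal of GLUT1 from the cell surface, hardly differed between the groups. It read 10.72, 10.73 and 10.98 in control cells and 10.50, 10.87 and 11.07 after transfer, which is a mean difference of 0.01 (adjusted p = 0.993, standard error 0.19). The 95% confidence interval of −0.43 to 0.44 leaves room for a change of up to that size in either direction. Of its 15 probe sets 12 lay above the background, 10 were higher and 5 lower, and the median difference was 0.06. Probe set 2 was the largest of those without overlap, at 9.61, 9.75 and 9.85 against 10.27, 10.16 and 10.52 (difference 0.58, adjusted p = 0.450).

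Over all 176 probe sets of the 10 genes, 125 (71.0%) were higher after transfer and 51 lower, whereas 45.1% of all probe sets on the array were higher. The groups separated upward in 75 of the 176 (42.6%) and downward in 4 (2.27%), against 7.53% and 10.3% of all probe sets. The 75 came mainly from HK2, HK1, SLC2A1, PFKFB4 and SLC2A3, with 18, 16, 12, 12 and 7. In the fit over all probe sets 2 were called higher, those of PFKFB4 and PFKFB2 above, and 0 lower, against 0.0578% and 0.0034% of all probe sets. At an unadjusted p under 0.05 in limma 60 were higher and 5 lower, against 4.68% and 5.36%. Probe sets of 1 gene measure the same RNA and are not replicates, and the genes were chosen with earlier results of these data known. These shares therefore describe the genes and carry no test. A total of 116 of the 176 probe sets lay above the background.

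**Figure D3:**
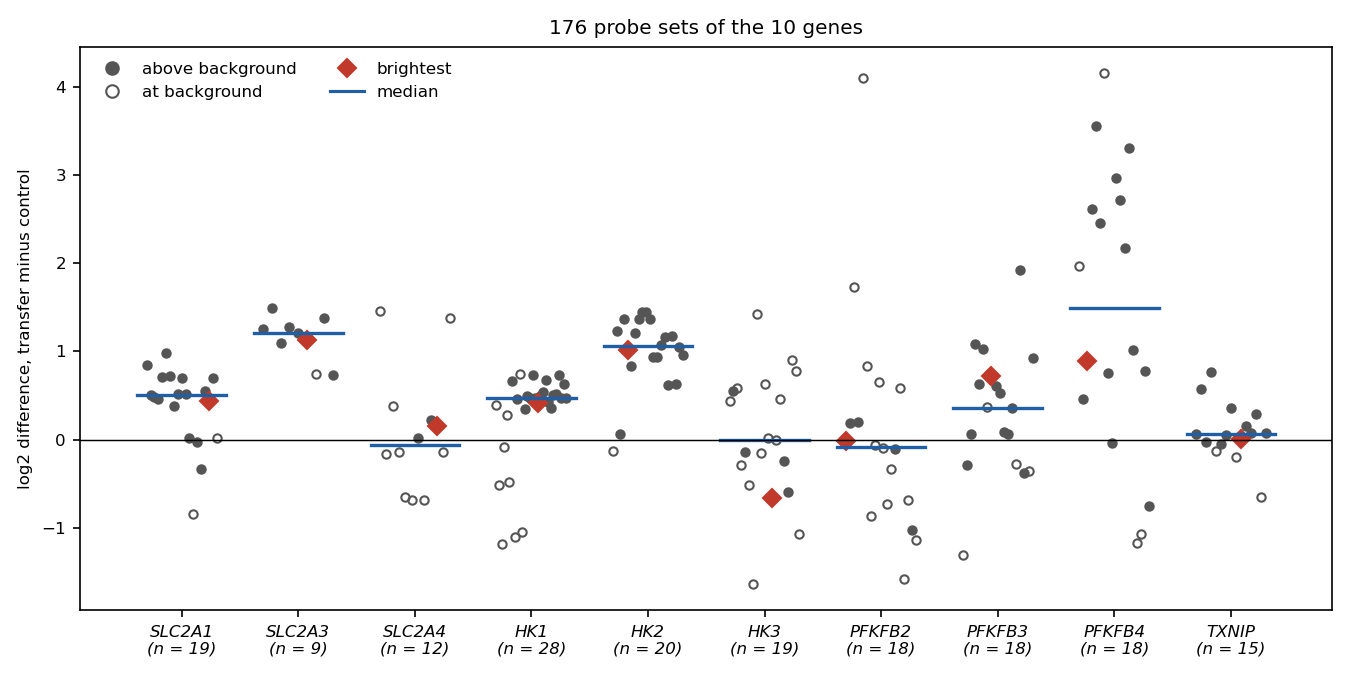
Log2 difference (transfer minus control) of each of the 176 probe sets, by gene, with probe sets above the background filled, those at background open, the brightest of each gene as a red diamond and the gene's median as a blue line. The medians of HK2 and SLC2A3 lie around 1 and those of HK1 and SLC2A1 around 0.5. For PFKFB4, 8 of 18 probe sets lie above 2 on the values as deposited, 4 lie below 0, and the brightest lies at 0.89.

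Relatives within each family were compared directly, as the difference between 2 genes on each array. HK2 exceeded HK1 in its change by 0.61 on the log2 scale, and SLC2A3 exceeded SLC2A1 by 0.70, in both cases with no overlap between the groups. For SLC2A3 minus SLC2A1 the 3 control arrays gave −0.24, −0.48 and −0.18 and the 3 transfer arrays 0.43, 0.40 and 0.37. An exact two-sided permutation test gave p = 0.1 for each of these pairs, the smallest that 3 against 3 allows, and 0.2 after adjustment over the 4 pairs, so the design could not reach 0.05. PFKFB3 minus PFKFB2 (0.74, exact p = 0.2) and PFKFB4 minus PFKFB3 (0.16, exact p = 0.6) had overlapping groups on the brightest probe sets. Both depended on the value chosen for the gene. With the mean and the median of probe sets, PFKFB4 minus PFKFB3 became 1.17 and 1.43 (exact p = 0.1 for each). PFKFB3 minus PFKFB2 became 0.23 and 0.09 (exact p = 0.4 and 0.9).

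Of the genes around this entry point, few passed the test. Their counts stand against 1.74% of all genes called higher and 0.234% called lower, and 10.6% and 7.31% at an unadjusted p under 0.05. Among 13 measured glucose transporter genes outside the 10, 0 were called in either direction (2 higher and 0 lower at an unadjusted p under 0.05 in limma), with a median of 0.17. SLC2A5, a fructose carrier, and SLC5A1, the intestinal sodium-glucose cotransporter, differed by 0.66 (adjusted p = 0.186) and 0.89 (adjusted p = 0.276), and SLC2A11 by 0.37 (adjusted p = 0.342). The medians over the probe sets of SLC2A5 and SLC5A1 were 0.20 and 0.09. The median for SLC2A11 was −0.10, opposite in sign to its brightest probe set. Of 3 measured genes of other glucose kinases and the glucokinase regulator, 0 were called (2 higher and 0 lower at an unadjusted p under 0.05). HKDC1, GCKR and ADPGK differed by 0.65, 0.87 and −0.15 (adjusted p = 0.232, 0.269 and 0.612). The medians over the probe sets of HKDC1 and GCKR were −0.46 and −0.12, also opposite in sign.

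Of 7 phosphofructokinase and fructose bisphosphate enzyme genes, 0 were called (3 higher and 0 lower at an unadjusted p under 0.05), with a median of 0.05. PFKM and PFKL, the muscle and liver subunits of phosphofructokinase, differed by 0.51 (adjusted p = 0.136) and 0.40 (adjusted p = 0.220), and PFKFB1 lay at background. The medians over the probe sets of PFKM and PFKL were 0.03 and 0.21, with 18 of 35 and 19 of 28 higher. Of 15 measured genes of glycolysis below phosphofructokinase, a list that also holds GPI from the step above it, 0 were called and 5 were higher and 0 lower at an unadjusted p under 0.05, with a median of 0.12. PGK1, LDHA and GPI, which encode phosphoglycerate kinase, a lactate dehydrogenase subunit and glucose phosphate isomerase, differed by 0.61 (adjusted p = 0.0872), 0.50 (adjusted p = 0.131) and 0.49 (adjusted p = 0.160). Of their probe sets, 11 of the 12 of PGK1, all 18 of LDHA and 19 of the 20 of GPI were higher. The medians over the probe sets were 0.97, 0.64 and 0.75.

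Among 20 measured genes of other fates of the phosphorylated sugar, 2 rose and 0 fell, against a median of −0.01. GBE1, the glycogen branching enzyme gene, read 9.32, 8.77 and 9.21 in control cells and 11.05, 10.98 and 11.14 after transfer. This separate difference of 1.96 (standard error 0.18, adjusted p = 0.00266) was larger than that of any of the 10 genes on their brightest probe sets, and 17 of the 18 probe sets of GBE1 were higher. GFPT2, a gene of the hexosamine pathway, rose by 0.78 (standard error 0.14, adjusted p = 0.0443), with a median over its 24 probe sets of 0.20. GBE1 passed in all 19 ways of processing, whereas GFPT2 passed in 6 of them and in 0 of the 6 with an array left out (highest adjusted p over all 19 = 0.678). PYGL, liver glycogen phosphorylase, had a difference of 0.59 (adjusted p = 0.132), with a median over its 19 probe sets of 0.15.

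Of 9 alpha-arrestin and thioredoxin genes beside TXNIP, 1 fell and 0 rose, with a median of 0.02. It was TXN2, the mitochondrial thioredoxin gene, which read 9.50, 9.28 and 9.34 in control cells and 8.63, 8.50 and 8.59 after transfer (difference −0.80, standard error 0.13, adjusted p = 0.0336). Of its 7 probe sets 6 were lower, with a median of −0.32. TXN2 passed in 7 of 19 ways of processing and in 0 of the 6 with an array left out, and its call also ended with the mean, the median and the second brightest probe set (highest adjusted p over all 19 = 0.499). ARRDC3 and ARRDC2, relatives of TXNIP, differed by 0.32 (adjusted p = 0.332) and 0.30 (adjusted p = 0.389), with medians over their probe sets of 0.56 and −0.14. Of 14 measured upstream regulators 0 were called, with 2 higher and 1 lower at an unadjusted p under 0.05 in limma and a median of 0.10. KLF10, a glucose- and TGF-beta-responsive repressor, differed by 0.93 (adjusted p = 0.0634) and was higher in all 7 probe sets, and SREBF1 and MLXIPL differed by −0.77 (adjusted p = 0.183) and 0.95 (adjusted p = 0.186). The median over the probe sets of SREBF1 was −0.09, and that of MLXIPL was −0.20, opposite in sign to its brightest one.

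**Figure D4:**
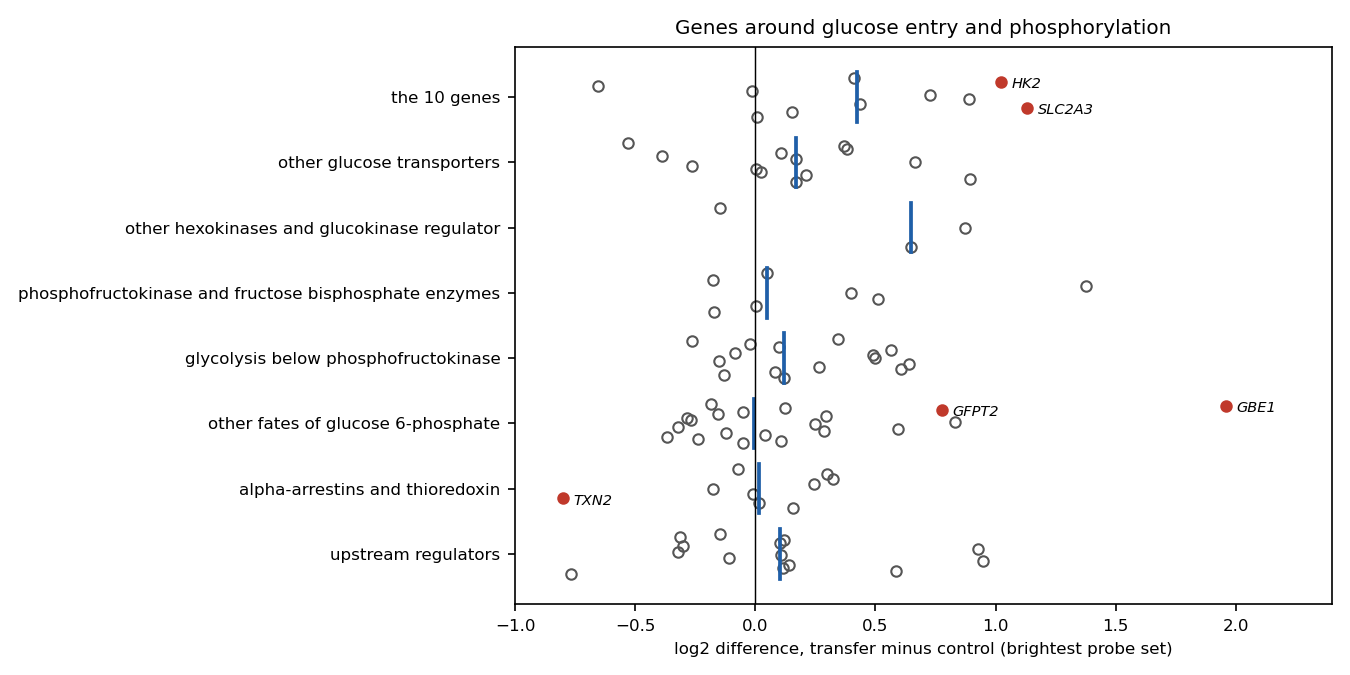
Log2 difference (transfer minus control) for each gene on its brightest probe set, by list, with genes past adjusted p 0.05 in red and named, others open, and the list's median as a blue line. HK2, SLC2A3, GBE1 and GFPT2 lie to the right and TXN2 to the left, and the medians of the lists lie between −0.01 and 0.65.

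The genes whose pattern over the 6 arrays was nearest to that of 3 members were found by the root mean square distance of values centred on each gene's own mean, among 16005 genes above the background. For HK2 these were KCNJ9, FGFR4 and GNA15, at distances of 0.0395, 0.0763 and 0.0812. For SLC2A3 they were LYPD3, KCNJ9 and SMTN, at 0.0532, 0.0794 and 0.0819. KCNJ9 read 9.18, 8.79 and 9.03 in control cells and 9.83, 10.07 and 10.13 after transfer on its brightest probe set, but only 1 of its 4 probe sets was higher. The likeness to HK2 and SLC2A3 was therefore one of single probe sets, since the median differences over the probe sets were −0.15 for KCNJ9, −0.02 for FGFR4, 0.23 for GNA15, −0.08 for LYPD3 and −0.48 for SMTN. For TXNIP the nearest genes were ATP10D, BLCAP and GPR50, at 0.0272, 0.0449 and 0.0473. This likeness too was one of brightest probe sets, as the median differences over all probe sets of these genes were −0.13, −0.43 and −0.07.

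Most fits to the remaining arrays, which have fewer samples to test on, did not call SLC2A3 or HK2. With each array left out in turn, the difference of SLC2A3 ranged from 1.02 to 1.25 and that of HK2 from 0.91 to 1.14. SLC2A3 passed without the first control or the first transfer array and not without any of the other 4, with a highest adjusted p of 0.0939. HK2 passed without the first transfer array and not without any of the other 5, with a highest adjusted p of 0.144. The sign of both was positive in all 19 ways of processing, as was that of SLC2A1, HK1, PFKFB3 and PFKFB4.

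**Figure D5:**
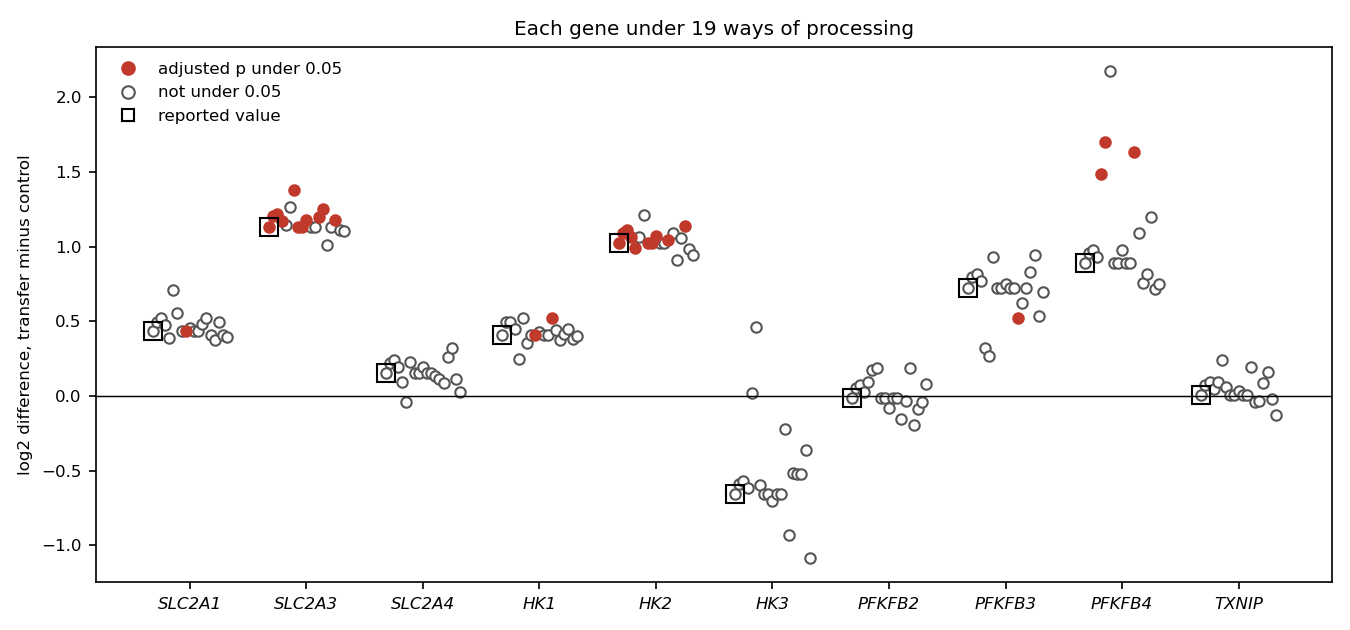
Log2 difference (transfer minus control) of each gene under 19 ways of processing, in red where the adjusted p was under 0.05, with the reported value boxed. SLC2A3 and HK2 stay near 1 and pass in 11 and 10 of 19, PFKFB4 passes in 3, and HK3, PFKFB2, SLC2A4 and TXNIP pass in 0.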

How the data were processed

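Total RNA of 6 NK-92MI samples was measured on Affymetrix whole-transcript arrays. The deposited log2 intensities were made by the authors with RMA in Affymetrix Power Tools, a procedure of background correction, quantile normalization of probes and summary to exon-level probe sets. The version, genome build and filter are not given in the sources used here. RMA pulls array distributions together, so that a shift common to all genes cannot be seen. No further normalization was applied. Of 352859 probe sets, 13116 named several genes and 80519 none, and neither kind entered the values per gene. Symbols were updated through RefSeq's gene list (1726 symbols updated, 20529 current, 65 unmatched). Each gene was represented by its brightest probe set, by the mean of the 6 arrays.

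Transfer was compared with control by limma 3.58.1 in R 4.3.3 (lmFit and eBayes), in 1 fit over genes and 1 over probe sets, with Benjamini-Hochberg adjustment over all features and a threshold of 0.05. No filter on dim values was applied. The procedure was tested on simulated data. Precision is limited by the number of arrays. The members and gene lists were chosen with earlier results of these data known. The text names all members, of each list the 3 genes with the smallest p and any past the threshold, and the 3 nearest genes of HK2, SLC2A3 and TXNIP. SLC2A14 and the single probe sets described were chosen after their values were seen. Probe sets are numbered in the order of their identifiers, which need not follow the transcript. Whether same-numbered samples were prepared together is not given in the sources used here. Deviations of same-numbered samples correlated at 0.07, 0.01 and 0.01, and those of other pairs at −0.05 to 0.04. With so few arrays this cannot decide it, and the main fit used no pairing. Other normalizations, values per gene, filters, variance models, array weights, a block, left-out arrays and the t-test of Student, from the study's methods, were tried.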

Additional observations from a re-analysis of the deposited data

How the results depend on the processing

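The number of the 10 genes called higher was 2, and it stayed 2 with the mean of probe sets, as HK2 and PFKFB4, since SLC2A3 lost its call (adjusted p = 0.0579). It became 1 with the median of probe sets (PFKFB4) or the second brightest probe set (SLC2A3), 4 with trend and robust, 0 by the methods' t-test (4 higher and 0 lower at an unadjusted p under 0.05), and 0 to 2 with 1 array left out. With the mean of probe sets above background, chosen after seeing the data, it was 5. The share of all genes called in that setting is not given here, so its counts have no background beside them. The number of member probe sets called higher was 2, and became 12 with probe sets above background only, 20 with trend and robust, 0 by the methods' t-test (63 higher and 1 lower unadjusted) and 0 with any array left out. Of the 20, 10 belonged to HK2 and 5 to PFKFB4. Over all probe sets, the share called higher rose from 0.0578% to 0.459% with probe sets above background only and 0.265% with trend and robust. Over all genes it went from 1.74% to 3.37% with trend and robust. All genes called higher numbered 388, against 53 with the mean of probe sets and 14 with their median. At an unadjusted p under 0.05 in the methods' t-test, 9.49% of all genes and 4.55% of all probe sets were higher. No gene or probe set of the group was called lower under any of these settings. The other genes of the pathway lists called higher numbered 2, against 4 with quantile normalization or genes above background only, 7 with trend and robust, 1 with array weights, 1 by the methods' t-test, 6 with the mean of probe sets above background, and 1 to 2 with an array left out. The 1 called lower became 0 with the mean, the median, the second brightest probe set, the methods' t-test, and each array left out (0 throughout).

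With the replicate number as a block, which changed calls, 0 member genes, 0 member probe sets, 1 list gene higher and 0 lower were called, with SLC2A3 at an adjusted p of 0.0987 and HK2 at 0.129. The labels give these samples a shared number and do not say whether they were prepared together.

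Signs turned only in differences that missed the threshold. PFKFB2 became 0.056 with quantile normalization, 0.075 with cyclic loess, 0.026 with centred arrays, 0.092 with the mean, 0.18 with the median, 0.19 with the second brightest probe set, and ranged from −0.20 to 0.19 with an array left out. HK3 became 0.023 with the mean and 0.46 with the median, and SLC2A4 became −0.041 with the median. With an array left out TXNIP ranged from −0.12 to 0.16, and PFKFB4 minus PFKFB3 reached −0.0099 without control replicate 3. Scaling moved the median of all genes by at most 0.07.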
